A study of Mus musculus with 9 samples.

Results

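The 35 genes described here code for the enzymes of glycolysis, the carriers that move glucose and lactate across membranes, the regulators that set the glycolytic rate, and the hypoxia-inducible factor (HIF) pathway. They were taken by gene symbol from the 32285 genes of each count matrix, and all 35 were present. By role they are 17 glycolytic enzymes (Hk1, Hk2, Gpi1, Pfkl, Pfkm, Pfkp, Aldoa, Tpi1, Gapdh, Pgk1, Pgam1, Pgam2, Eno1, Eno3, Pkm, Ldha and Ldhb), 4 transporters (Slc2a1, Slc2a4, Slc16a1 and Slc16a3), 3 regulators of flux (Pfkfb2, Pfkfb3 and Pdk1), 4 HIF alpha subunits and prolyl hydroxylases (Hif1a, Epas1, Egln1 and Egln3) and 7 hypoxia response genes (Bnip3, Ankrd37, Adm, Ddit4, Ndrg1, P4ha1 and P4ha2). Their UMIs (unique molecular identifiers, each standing for 1 captured RNA molecule) were summed per library and marker-defined cell class, and compared between 3 groups of mouse hearts.

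Single-nucleus RNA was measured in 9 libraries from hearts of wild-type male mice aged 9 to 10 weeks, 3 libraries per group. Ischaemia-reperfusion (I/R) was made by blocking the left anterior descending artery of the heart for 45 min, with 24 h of reperfusion. NS-Sham mice had the chest opened without occlusion and received saline. NS-I/R mice had I/R with saline, and Enpa-I/R mice had I/R with enpatoran, an inhibitor of the nucleic acid sensors TLR7 and TLR8, at 5 mg/kg by intraperitoneal injection. All mice were injected 2 times, first 1 h before ischaemia. The labels give 2 different times for the second injection. The nuclei came from powdered frozen heart, and which region it came from is not stated, so each I/R library may mix injured and remote muscle in an unknown proportion. No label says that each library is a separate animal beyond its replicate number, and the p-values measure only the spread between these libraries.

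Glycolysis splits glucose into pyruvate in the cytosol and yields ATP without oxygen. The healthy adult heart burns mainly fatty acids and takes up glucose through the insulin-responsive carrier GLUT4 (Slc2a4). When oxygen is short, the prolyl hydroxylases (Egln1, Egln3) can no longer mark the HIF alpha subunits for destruction. The stabilised subunits then pair with ARNT and bind a short DNA core in the promoters of glycolytic genes, of the basal glucose carrier GLUT1 (Slc2a1) and of the lactate exporter MCT4 (Slc16a3). HIF alpha is controlled chiefly at the protein level, and the values below are RNA levels in nuclei only.

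The libraries held 19.7 to 39.0 M UMIs. Of 56766 barcodes, 41979 nuclei were kept in 28 clusters, with library medians of 2365 to 3263.5 UMIs per nucleus. Named classes were 9417 cardiomyocyte-like, 11632 endothelial-like, 6500 fibroblast-like, 3360 macrophage-like, 3269 pericyte-like, 923 smooth muscle-like, 570 lymphatic endothelial-like, 1478 endocardial-like and 1748 neutrophil-like nuclei. Cardiomyocyte-like nuclei carried 8079762 to 16835755 UMIs per library, endothelial-like 1890712 to 4087662, fibroblast-like 1808466 to 5421775 and macrophage-like 390550 to 1292645. All 8 cardiomyocyte markers, among them Ttn and Myh6, were detected in the cardiomyocyte-like nuclei of every library. A cluster led by Tnc held 5 nuclei from NS-Sham against 1315 from NS-I/R and 817 from Enpa-I/R. It scored highest for fibroblast markers, with a mean log2 of 2.94 against 0.43 for the next type and 7 markers passing. The cluster was left unnamed because its leading genes held 0 fibroblast markers and 1 marker of another type. By this naming rule it was kept out of the fibroblast-like class. A heat-shock-led endothelial cluster had 421 nuclei in NS-I/R, 9 in Enpa-I/R and none listed in NS-Sham. Of the barcode strings, 231 occurred in more than 1 library. NS-I/R replicate 3 stood apart from replicates 1 and 2 in many members, and results that turn on it are given with and without it. The 35 genes took no part in the clustering.

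Levels are given as CPM, the UMIs of a gene scaled to a common class total in every library after TMM normalization, in the order of replicates 1, 2 and 3. Levels by cluster and summed marker levels are CPM of the total UMIs without TMM scaling. Cluster levels pool the libraries of a group. A change is a log2 fold change ± its standard error from edgeR's quasi-likelihood test across all genes of the class, and it is called where the Benjamini-Hochberg adjusted p is below 0.05. The libraries of each group serve in 2 of the 3 contrasts, so these are not independent of each other.

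In cardiomyocyte-like nuclei of NS-I/R hearts the members split into opposite directions. Pfkp, Slc2a1, Ndrg1, Hk1, Pkm and Pgk1 rose relative to NS-Sham, by log2 fold changes of 1.31 to 2.82, while Eno3, Bnip3, Pgam2, Pfkm, Pfkfb2 and Ldhb fell, by log2 fold changes of -1.48 to -0.98. Of the 35 members, 24 were called, 15 higher and 9 lower, where 45.3% of all genes tested in that class were called, 23.7% higher and 21.7% lower. The median log2 fold change of the members was 0.27 against 0.01 over all genes tested. Among the enzymes 8 rose and 4 fell of 17, among the transporters 3 rose and 1 fell of 4, among the regulators 1 rose and 1 fell of 3, among the HIF subunits and hydroxylases 1 rose and 1 fell of 4, and among the hypoxia response genes 2 rose and 2 fell of 7.

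**Figure D1:**
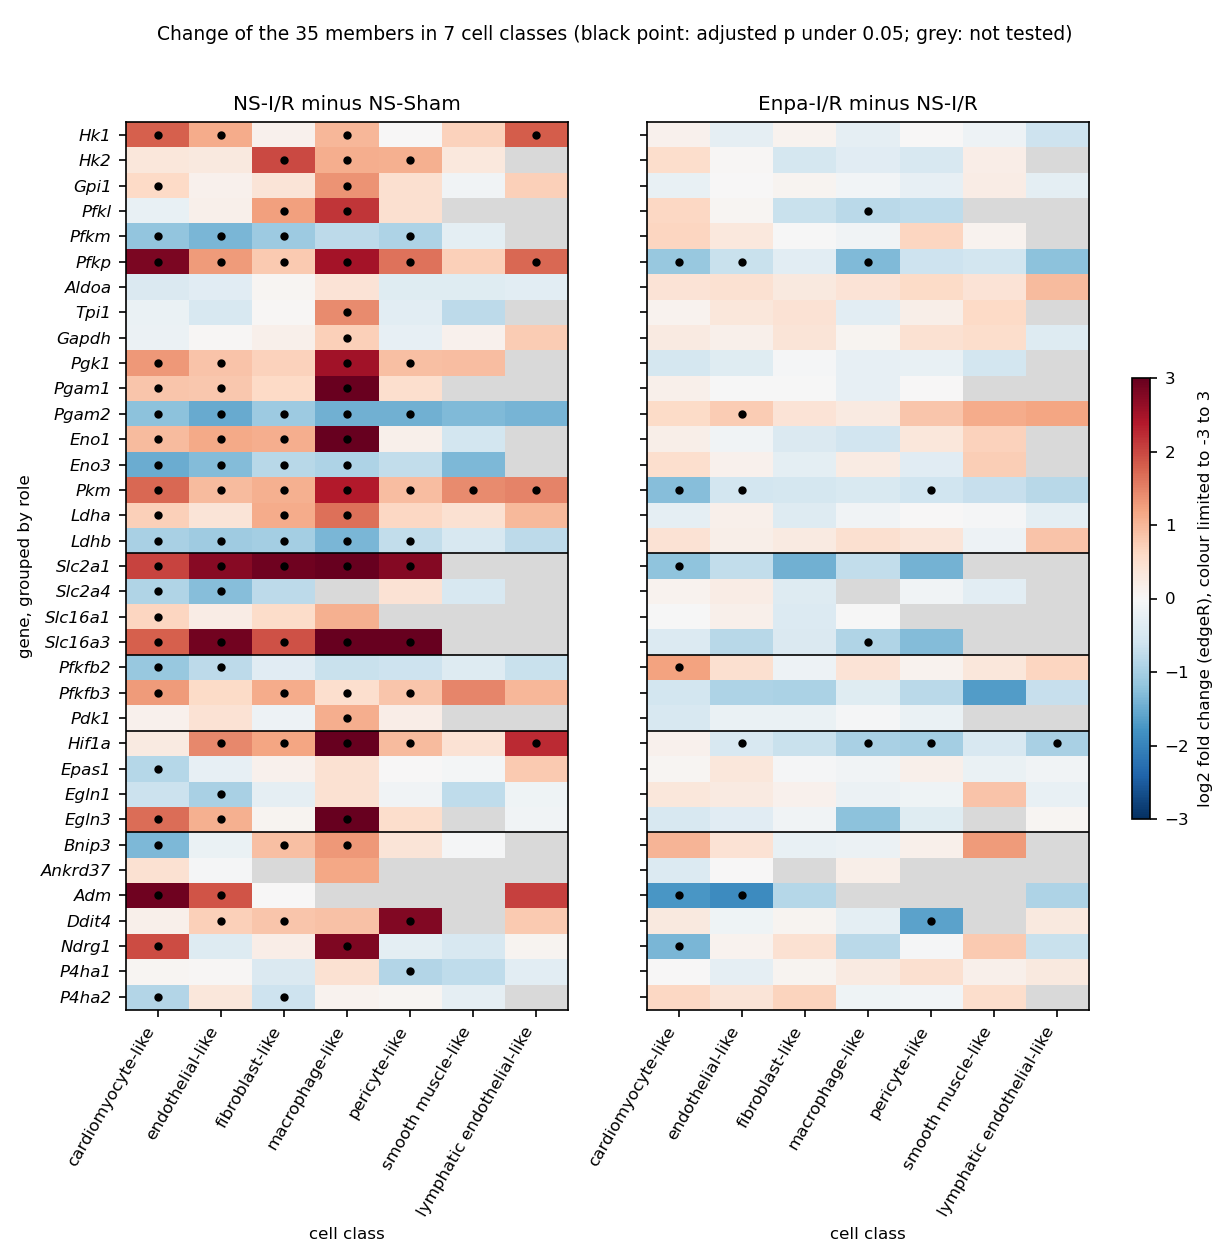
Log2 fold change (colour, red higher and blue lower, limited to -3 to 3) of the 35 members in rows, grouped by role, in 7 cell classes in columns, for NS-I/R minus NS-Sham on the left; the right panel has Enpa-I/R minus NS-I/R. Black points mark adjusted p below 0.05 and grey cells were not tested. Pfkm, Pgam2, Eno3 and Ldhb are blue in every tested class on the left, with calls in 4 or 5 of them, whereas Slc2a1 and Slc16a3 are called higher in 5 classes.

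Several steps of glycolysis are run by isozymes coded by separate genes, 1 typical of muscle and another of wide use. Phosphofructokinase, the committed step, has the muscle form Pfkm, the liver form Pfkl and the platelet form Pfkp. In cardiomyocyte-like nuclei Pfkp stood at 47.6, 51.6 and 48.4 CPM for NS-Sham, 486, 309 and 252 for NS-I/R and 165, 166 and 144 for Enpa-I/R. All 3 NS-I/R libraries lay above all Enpa-I/R libraries, which in turn lay above all NS-Sham libraries. The change from NS-Sham to NS-I/R was 2.82 ± 0.22 (adjusted p = 1.83e-05). Pfkm moved the other way, from 129.6, 152 and 173 CPM for NS-Sham to 50.8, 54.5 and 95.2 for NS-I/R, with Enpa-I/R at 102, 121 and 90.1. Its change was -1.18 ± 0.23 (adjusted p = 0.0026), and the NS-Sham and NS-I/R libraries did not overlap. Pfkl did not pass the test, at -0.23 ± 0.22.

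The same exchange showed at the later steps. Muscle enolase Eno3 stood at 108, 99.9 and 130.3 CPM for NS-Sham and 25.3, 28.7 and 67.1 for NS-I/R, a change of -1.48 ± 0.35 (adjusted p = 0.0069), while the widely used Eno1 rose by 0.94 ± 0.28. Muscle phosphoglycerate mutase Pgam2 fell from 75.6, 34.9 and 81.1 CPM to 28.3, 22.6 and 30.6 (log2 -1.23), and Pgam1 rose by 0.84 ± 0.14. NS-Sham replicate 2, the lowest of its group for Pgam2, had 11.9% of barcodes above the mitochondrial limit of 5%. NS-Sham replicates 1 and 3 had 23.4% and 23.7%, the NS-I/R libraries 11.8% to 13.5% and the Enpa-I/R libraries 13.9% to 17.8%. The part of this library difference in the fall of Pgam2 was not tested. Ldhb, the heart form of lactate dehydrogenase, fell from 203, 218 and 258 CPM to 101, 102 and 140.0, a change of -0.98 ± 0.16 (adjusted p = 9.60e-04). Ldha, the form that favours making lactate, rose by 0.73 ± 0.22. In each of these pairs the muscle or heart form gave less and the other form more RNA after I/R.

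Hexokinase, which traps glucose in the cell, showed a different pattern. Hk1 stood at 61.9, 67.1 and 73.5 CPM for NS-Sham, 230.5, 191 and 275 for NS-I/R and 214, 231 and 310.3 for Enpa-I/R, so both I/R groups lay above NS-Sham and overlapped each other. It rose by 1.78 ± 0.18 (adjusted p = 6.72e-05). The insulin-responsive Hk2 varied widely within NS-I/R, at 341, 173 and 557 CPM against 269, 259 and 322 for NS-Sham, and was not called (0.33 ± 0.38). Pyruvate kinase Pkm, which makes pyruvate and ATP in the last step, stood at 96.6, 110.3 and 132 CPM for NS-Sham, 439, 423 and 265 for NS-I/R and 169.9, 158 and 135 for Enpa-I/R. Its change was 1.73 ± 0.20 (adjusted p = 1.44e-04). Counts per gene do not separate its M1 and M2 splice forms. Pgk1, the first ATP-making step, went from 22.7, 14.8 and 23.5 CPM to 56.5, 41.3 and 52.6, and Gpi1 also rose; their log2 fold changes were 1.31 and 0.60. Aldoa, Tpi1 and Gapdh, each coded chiefly by 1 gene in the heart, were not called, at -0.42, -0.19 and -0.18. In each of them NS-Sham replicate 2 lay below NS-Sham replicates 1 and 3, as for Pgam2.

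**Figure D2:**
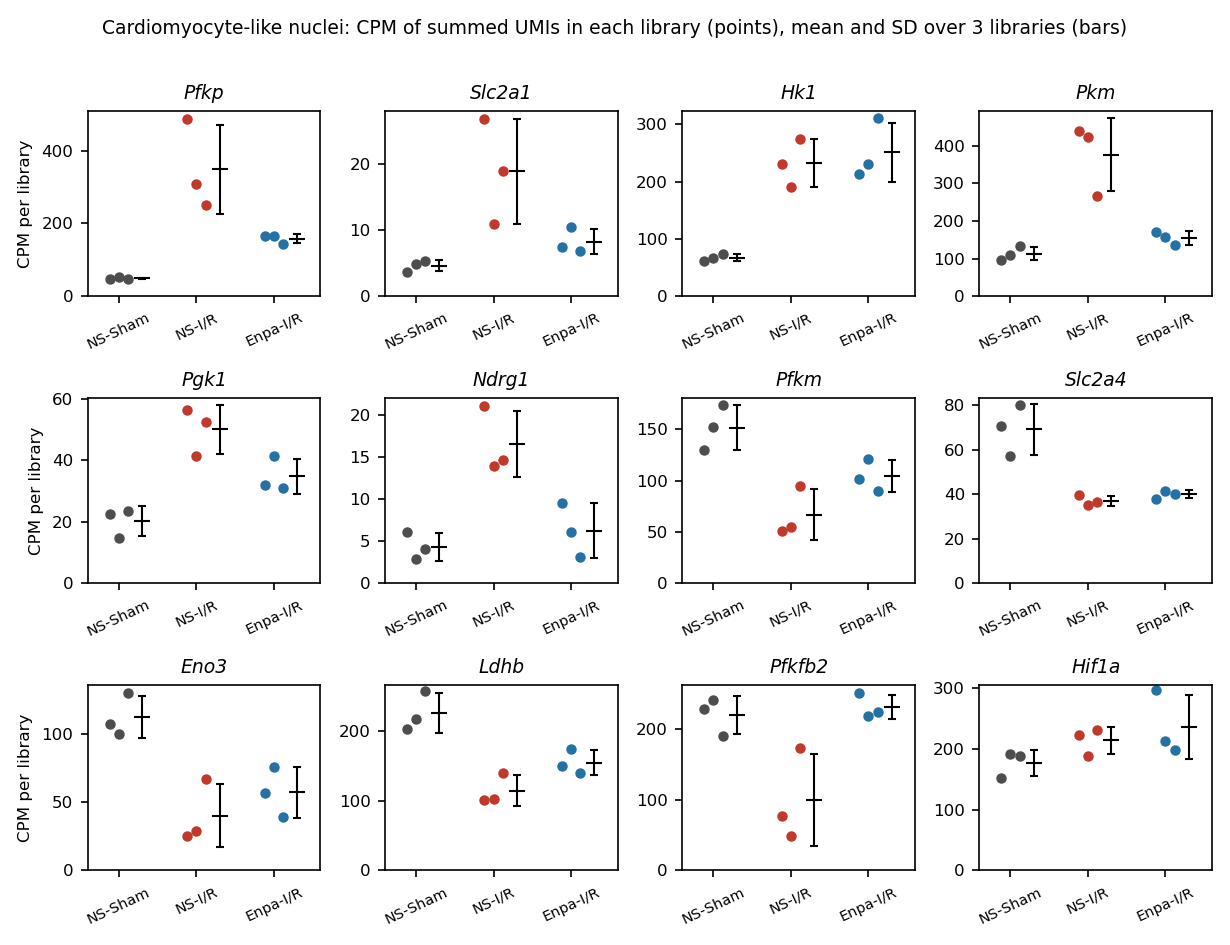
CPM of 12 members in cardiomyocyte-like nuclei, 1 panel per gene with its own axis from 0; points are the 3 libraries of each group (NS-Sham left, NS-I/R middle, Enpa-I/R right), and bars are the mean and SD. Pfkp, Pkm and Ndrg1 are highest in all 3 NS-I/R libraries, Hk1 is high in both I/R groups, and Slc2a4 is as low in Enpa-I/R as in NS-I/R.

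Expressed as a share of UMIs, the Pfkp share of all phosphofructokinase UMIs was 24.5%, 22.7% and 20.02% in the NS-Sham libraries, 88.1%, 82.00% and 67.9% for NS-I/R and 56.3%, 52.6% and 55.8% for Enpa-I/R, or 22.4% ± 2.26, 79.4% ± 10.4 and 54.9% ± 2.02 (mean ± SD, n = 3). The groups did not overlap. The Eno1 share of Eno1 and Eno3 was 14.7% ± 1.28 for NS-Sham, 49.4% ± 7.93 for NS-I/R and 42.7% ± 3.94 for Enpa-I/R, and the Pgam1 share of both mutases was 18.2% ± 5.95, 46.2% ± 2.3 and 39.1% ± 2.67. The Ldha share of both dehydrogenases was 13.9% ± 2.95, 34.9% ± 8.88 and 24.7% ± 1.29, and the Slc2a1 share of both glucose carriers 6.33% ± 1.46, 32.7% ± 8.35 and 16.98% ± 2.84. For these 5 shares every library of NS-I/R and of Enpa-I/R lay above every NS-Sham library. The Hk2 share of both hexokinases fell instead, from 80.7% ± 1.1 to 58.1% ± 9.82 for NS-I/R and 65.98% ± 4.96 for Enpa-I/R. MCT4 (Slc16a3) took 0.894% ± 0.314, 1.91% ± 0.277 and 1.54% ± 1.44 of the UMIs of both lactate carriers. Shares are descriptions without a test and are not corrected for transcript length, so only their differences between groups are read. Under other filters, clusterings and fits with 1 library left out, 21 of 168 group means of shares moved by at least the SD between libraries.

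**Figure D3:**
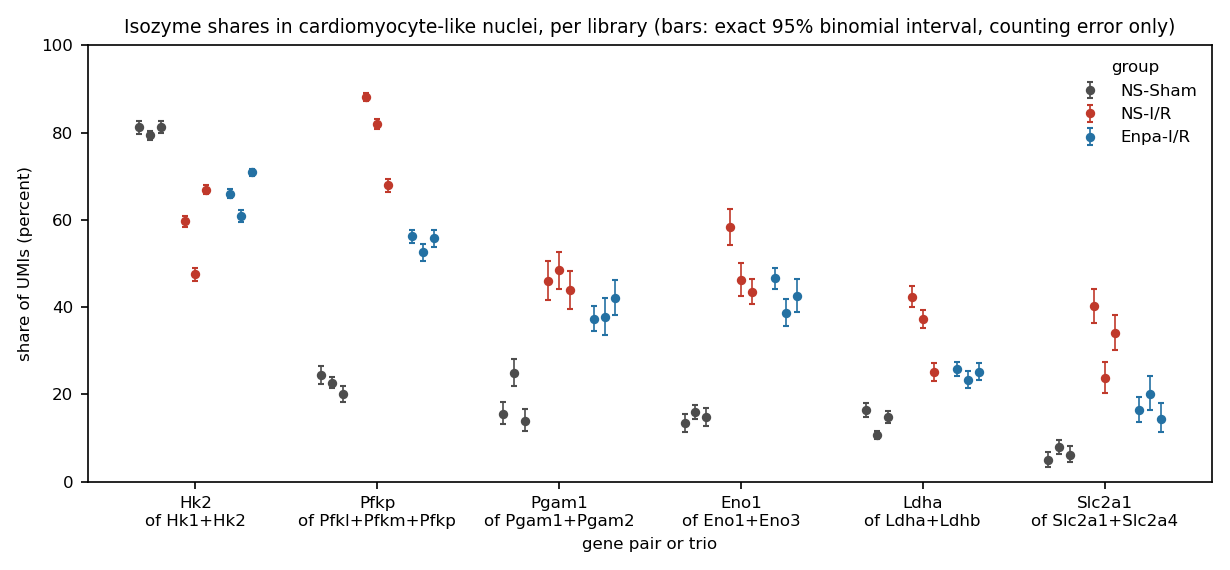
Share of UMIs (percent, 0 to 100) taken by 1 isozyme in cardiomyocyte-like nuclei, per library; bars are exact 95% Clopper-Pearson intervals, which cover counting error only. The Pfkp share rises from 20.0% to 24.5% in NS-Sham to 67.9% to 88.1% in NS-I/R, and Enpa-I/R lies between them at 52.6% to 56.3%.

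Glucose entry changed on the same lines. Slc2a1 stood at 3.67, 4.88 and 5.29 CPM for NS-Sham, 26.7, 10.9 and 18.97 for NS-I/R and 7.49, 10.4 and 6.8 for Enpa-I/R, and rose by 2.02 ± 0.32 (adjusted p = 8.11e-04). Slc2a4 stood at 70.6, 57.3 and 80.1, 39.6, 35.02 and 36.6 and 38.1, 41.7 and 40.3 CPM in the same order, and fell by 0.90 ± 0.14 on the log2 scale (adjusted p = 7.49e-04). Both I/R groups lay below every NS-Sham library for this carrier. The lactate carriers Slc16a1 and Slc16a3 rose by 0.64 and 1.80 on the log2 scale; Slc16a3 was rare, at 0.573, 0.301 and 0.738 CPM for NS-Sham and 2.15, 1.65 and 1.54 for NS-I/R.

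Of the regulators, Pfkfb2 is the heart form of the enzyme that makes and breaks fructose 2,6-bisphosphate, the activator of phosphofructokinase, and Pfkfb3 is the inducible form. Pfkfb2 stood at 229, 241 and 191 CPM for NS-Sham, 77.01, 49.1 and 174 for NS-I/R and 252, 218 and 225 for Enpa-I/R. All 3 NS-I/R libraries lay below the other 6, with replicate 3 closest to them. Its change from NS-Sham was -1.14 ± 0.36 (adjusted p = 0.025), and the call was lost without NS-I/R replicate 1, NS-Sham replicate 1 or NS-Sham replicate 2 (log2 -1.12 to -0.98, adjusted p 0.061 to 0.086). Pfkfb3 rose by 1.28 ± 0.29. Pdk1, which shuts pyruvate out of the mitochondrial oxidation route, was not called (0.12 ± 0.18).

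Hif1a RNA itself did not pass the test in cardiomyocyte-like nuclei, at 152, 191 and 188 CPM for NS-Sham and 223, 189 and 231 for NS-I/R (0.27 ± 0.17, adjusted p = 0.21), and the libraries of the groups were interleaved. Epas1, which codes for HIF-2 alpha, fell from 69.9, 92.4 and 86.4 CPM to 50.9, 37.4 and 49.3, a change of -0.85 ± 0.19 (adjusted p = 0.0047). Egln3, a hydroxylase gene that is itself induced by HIF, was called higher (1.67 ± 0.49), but NS-I/R replicate 2 lay inside the NS-Sham range, at 26.02, 14.2 and 9.84 CPM for NS-Sham and 65.5, 18.3 and 75.1 for NS-I/R. Egln1 was not called (-0.63 ± 0.26).

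The hypoxia response genes did not move as 1 group. Ndrg1, a stress-induced gene, stood at 6.07, 2.83 and 4.06 CPM for NS-Sham and 21.02, 13.97 and 14.7 for NS-I/R, a rise of 1.96 ± 0.40 (adjusted p = 0.0028). Adm, which codes for the vasodilator peptide adrenomedullin, went from 0.458, 0.784 and 0.861 to 7.29, 4.004 and 5.02 CPM (2.91 ± 0.36); it rests on 24 UMIs for NS-Sham and 168 for NS-I/R. Bnip3, a mitophagy gene and HIF target, fell, from 154, 72.4 and 56.7 CPM to 39.5, 17.3 and 53.9 (-1.36 ± 0.42, adjusted p = 0.022). Its NS-Sham libraries differed more than 2-fold among themselves, and the call was lost without NS-I/R replicate 1, NS-I/R replicate 2 or NS-Sham replicate 1 (log2 -1.41 to -0.82, adjusted p 0.051 to 0.11). P4ha2, a collagen prolyl hydroxylase subunit, fell by 0.89 ± 0.24, and P4ha1, Ankrd37 and Ddit4 were not called (0.05, 0.47 and 0.14).

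Promoter sequence was read for the members because HIF acts through a 5-base core. The RefSeq table of promoter windows, 250 bases before to 50 bases after the transcription start on GRCm38.p6, held 32 of the 35 members. The core was searched as ACGTG or GCGTG on both strands, so that the reverse complements CACGT and CACGC count too; a CACGTG palindrome is counted as 1 core. A core was in a window of 29 of the 32 members (90.6%), against 12628 of 27025 genes (46.7%). The members are glycolysis and HIF pathway genes by choice, so their higher share is not read as a result. Genes with more than 1 window also had more chances to hold a core. The members' windows were also richer in G and C, with a median of 64% against 52.7% over all windows, and the part of base composition in this share was not tested. In cardiomyocyte-like nuclei 12 members rose and 9 fell with a mean of at least 10 CPM in the higher group and no overlap of the NS-I/R and NS-Sham libraries. Of these, 10 of the 11 risen and 6 of the 7 fallen members with a window held a core. The share of all genes meeting the same rule was not computed, and the rule served only to choose members for this reading. The windows of 5 members are printed 5′ to 3′ on the gene's own strand with cores in capitals: Pfkp and Slc2a1, which rose, Bnip3, which fell although its window holds as many cores as that of Pfkp, and the muscle forms Eno3, with 1 core, and Pgam2, with none. A match is a description of these letters and no evidence of binding. The windows lie at chr13:6648722-6649021, minus strand for Pfkp, chr4:119108495-119108794, plus strand for Slc2a1, chr7:138909457-138909756, minus strand for Bnip3, chr11:70656926-70657225, plus strand for Eno3 and chr11:5803747-5804046, minus strand for Pgam2.
Pfkp: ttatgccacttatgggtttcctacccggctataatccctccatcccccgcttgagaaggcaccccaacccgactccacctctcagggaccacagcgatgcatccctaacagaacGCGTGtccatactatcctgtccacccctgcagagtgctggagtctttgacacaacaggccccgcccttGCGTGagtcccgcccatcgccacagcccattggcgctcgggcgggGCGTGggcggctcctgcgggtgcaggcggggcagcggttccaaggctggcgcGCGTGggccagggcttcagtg
Slc2a1: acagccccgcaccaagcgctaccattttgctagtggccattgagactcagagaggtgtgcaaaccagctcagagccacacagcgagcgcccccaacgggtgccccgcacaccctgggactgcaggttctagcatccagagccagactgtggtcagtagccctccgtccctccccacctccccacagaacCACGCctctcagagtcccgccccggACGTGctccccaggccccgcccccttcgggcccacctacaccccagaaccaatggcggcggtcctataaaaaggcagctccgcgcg
Bnip3: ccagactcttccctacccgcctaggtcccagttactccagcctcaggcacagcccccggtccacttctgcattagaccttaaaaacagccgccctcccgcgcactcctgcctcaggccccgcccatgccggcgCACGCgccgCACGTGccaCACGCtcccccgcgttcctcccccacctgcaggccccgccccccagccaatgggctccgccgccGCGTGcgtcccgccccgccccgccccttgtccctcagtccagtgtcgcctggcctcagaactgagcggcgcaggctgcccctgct
Eno3: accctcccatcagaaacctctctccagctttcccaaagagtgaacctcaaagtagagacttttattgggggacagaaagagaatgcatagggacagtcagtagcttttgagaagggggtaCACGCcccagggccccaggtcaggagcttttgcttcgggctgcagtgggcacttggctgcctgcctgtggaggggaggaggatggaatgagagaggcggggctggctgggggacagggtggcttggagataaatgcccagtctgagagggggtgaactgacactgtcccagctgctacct
Pgam2: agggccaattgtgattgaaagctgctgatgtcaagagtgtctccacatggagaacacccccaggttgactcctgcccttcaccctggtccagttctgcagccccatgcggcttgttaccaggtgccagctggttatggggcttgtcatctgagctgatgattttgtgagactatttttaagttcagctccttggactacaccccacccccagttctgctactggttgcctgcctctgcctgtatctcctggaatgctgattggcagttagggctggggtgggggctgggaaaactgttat

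The rise and fall in cardiomyocyte-like nuclei went with a change in which clusters made up the class. Cluster 3 held 64.8% of the class for NS-Sham, 1.7% for NS-I/R and 15.8% for Enpa-I/R. Cluster 7 held 0.243%, 50.5% and 21.6%, and cluster 2 21.01%, 35.3% and 45.9%. In cluster 7 Pfkp stood at 530.1 CPM for NS-I/R and 296 for Enpa-I/R, Pkm at 564 and 240.1, and Slc2a1 at 27.5 and 15.3. Cluster 2 was present in all groups. There Pfkp stood at 58.3 CPM for NS-Sham, 111 for NS-I/R and 128 for Enpa-I/R, Hk1 at 75.8, 152 and 232, Pkm at 143, 145 and 126, and Slc2a1 at 6.26, 6.73 and 6.1. Thus Pfkp and Hk1 were higher after I/R within cluster 2, while Pkm and Slc2a1 differed between clusters. Tested in cluster 2 alone, 10 members were called rather than 24. This cluster held 33.9% of the nuclei of the class. The share of all genes called in it was not computed, so the lower count is not read as a result about the members. Slc2a1 and Pkm lost the call (log2 0.20 and 0.16), as did Pgk1, Bnip3, Pfkm, Pfkfb2, Ldhb and Epas1. Ndrg1 had the opposite sign without a call (-1.04, adjusted p = 0.13).

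Markers of other cells moved too. The summed level of the 7 neutrophil markers in cardiomyocyte-like nuclei was 0.713 to 2.69 CPM for NS-Sham, 27.6 to 82.4 for NS-I/R and 17.4 to 33.4 for Enpa-I/R, and that of the 8 macrophage markers 14.8 to 16.3, 23.7 to 30.9 and 20.9 to 37.5. The summed level of the cardiomyocyte markers fell from 56924 to 61498 CPM for NS-Sham to 36698 to 48884 for NS-I/R, with Enpa-I/R at 51553 to 57952. Their part in the members' changes was not tested. Beyond the members, 5 of 25 other genes of glycolysis and pyruvate use rose and 8 fell, and 10 of 29 other hypoxia genes rose and 3 fell. Among those named by the rule, Hmox1, the haem-degrading enzyme (5.56 ± 0.50), rose, and the D-lactate dehydrogenase gene Ldhd (-2.38 ± 0.38) and Zfp395 (-2.18 ± 0.33) fell.

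Macrophage-like nuclei showed the widest rise. Hif1a, Slc2a1, Egln3, Slc16a3, Eno1 and Pgam1 rose by log2 fold changes of 2.96 to 5.10, and of 33 members tested 23 were called, 20 higher and 3 lower, where 34.8% of all genes tested in that class were called, 17.9% higher and 16.9% lower. The median log2 fold change was 1.10 for the members and 0.03 for all genes tested. Of the 17 enzymes 12 rose and 3 fell, and of the other roles 2 of 3 transporters, 2 of 3 regulators, 2 of 4 HIF subunits and hydroxylases and 2 of 6 hypoxia response genes rose and none fell at adjusted p below 0.05. Slc2a4 and Adm were too rare to test.

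Hif1a, the HIF alpha subunit best known from myeloid cells, stood at 42.8, 48.4 and 60.9 CPM for NS-Sham macrophage-like nuclei, 624, 603 and 353 for NS-I/R and 219, 244 and 338 for Enpa-I/R. Every I/R library was above every NS-Sham library, and the rise to NS-I/R was 3.40 ± 0.26 (adjusted p = 1.87e-07). Its target Egln3 stood at 3.29, 1.98 and 0 CPM for NS-Sham and 80.5, 53.5 and 83.8 for NS-I/R; this rests on 4 UMIs for NS-Sham against 257 (log2 5.10, adjusted p = 4.66e-05). Epas1 was not called (0.45 ± 0.32).

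Among the carriers, Slc2a1 stood at 4.94, 5.93 and 5.3 CPM for NS-Sham, 125, 71.6 and 148 for NS-I/R and 71.4, 82.5 and 52.02 for Enpa-I/R, a rise to NS-I/R of 4.36 ± 0.39 (adjusted p = 8.69e-07). The lactate exporter Slc16a3 stood at 3.29, 8.89 and 15.9, 100.4, 82.1 and 92.4 and 49.6, 63.8 and 31.7 CPM, a rise of 3.40 ± 0.37 (adjusted p = 5.32e-06). For both carriers the NS-Sham libraries lay below all others.

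Along the pathway, Eno1 stood at 11.5, 19.8 and 15.9 CPM for NS-Sham and 148, 136 and 129.6 for NS-I/R (3.07 ± 0.30), Pfkp at 46.1, 59.3 and 71.5 and 451, 347 and 189 (2.50 ± 0.30), and Pkm at 104, 74.1 and 132 and 553, 464 and 534 (2.38 ± 0.20). Unlike in cardiomyocyte-like nuclei, Pfkl was called here, from 19.8, 20.8 and 15.9 to 91.8, 83.1 and 84.6 CPM (2.15 ± 0.24), and so were Tpi1 (1.41) and Gapdh (0.72); the test between the classes is given further on. Pgam1, Pgk1, Ldha, Gpi1, Hk2 and Hk1 rose as well, by 2.96, 2.51, 1.64, 1.35, 1.10 and 0.99. The regulators Pdk1 and Pfkfb3 rose by 1.09 and 0.51, and the hypoxia response genes Ndrg1 and Bnip3 by 2.80 and 1.30. Pgam2 (-1.44), Ldhb (-1.38) and Eno3 (-0.92) fell. Of the other pathway genes 3 of 18 glycolysis and pyruvate genes rose and 3 fell, and 12 of 27 hypoxia genes rose and 3 fell, among them the clock-linked repressor Bhlhe40 (3.81) upward and Slc16a7, another monocarboxylate carrier (-2.40), and Zfp395 (-2.17) downward.

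**Figure D4:**
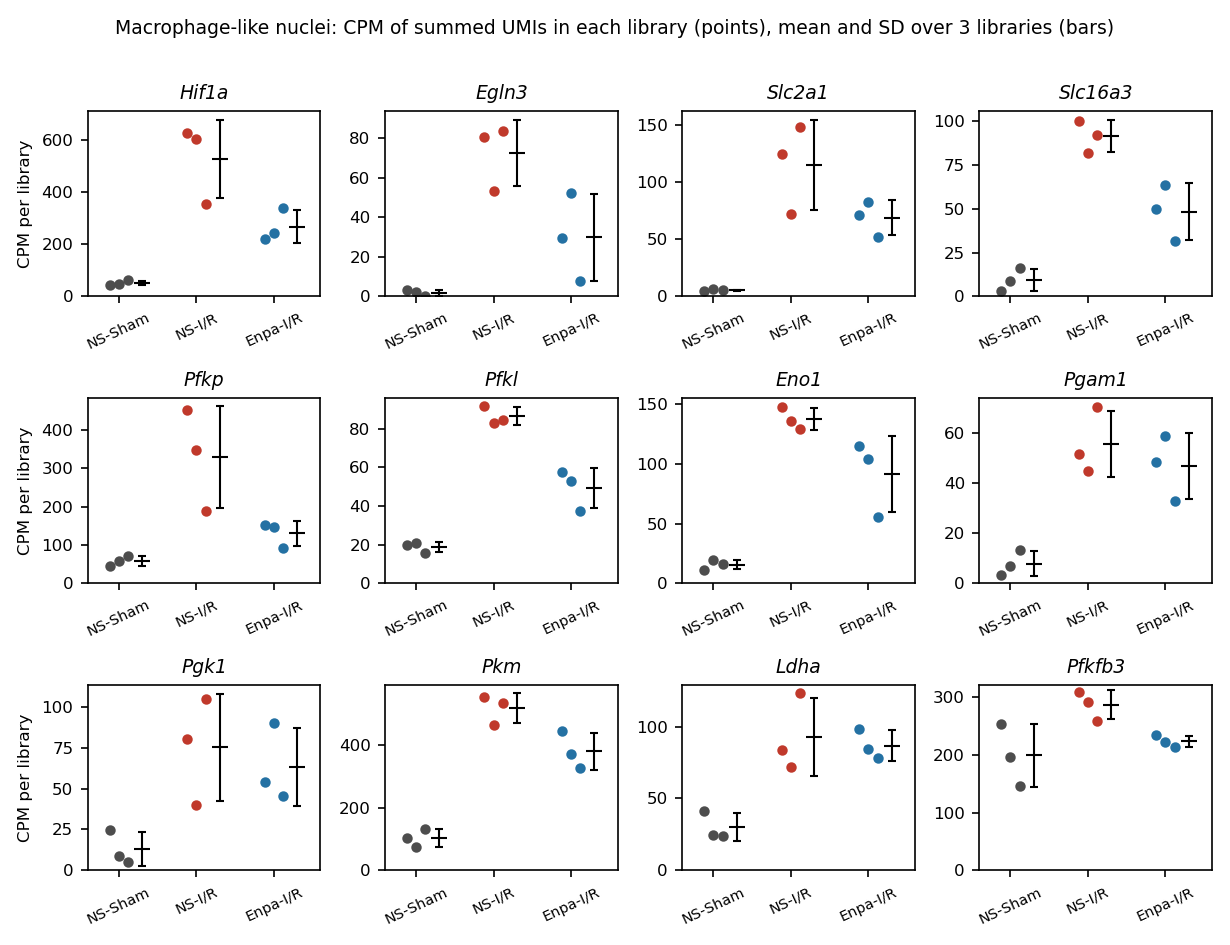
CPM of 12 members in macrophage-like nuclei, 1 panel per gene with its own axis from 0; points are the 3 libraries of each group and bars the mean and SD. In all panels except Pfkfb3, where they span 146 to 254 CPM, the NS-Sham libraries lie below every I/R library, and for Hif1a the Enpa-I/R libraries (219 to 338 CPM) lie below the NS-I/R libraries (353 to 624 CPM).

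Here too the class changed its makeup. Cluster 8 held 94.2% of macrophage-like nuclei for NS-Sham, 49.03% for NS-I/R and 62.1% for Enpa-I/R, and cluster 14 the remaining 5.83%, 50.97% and 37.9%. Hif1a stood at 839.6 CPM in cluster 14 of NS-I/R and 529.8 of Enpa-I/R, and in cluster 8 at 43.6 for NS-Sham, 157 for NS-I/R and 82.5 for Enpa-I/R. Within cluster 8 alone, 11 members were called between NS-I/R and NS-Sham rather than 23, and Slc16a3 lost the call (1.48, adjusted p = 0.073). Cluster 8 held 64.5% of the nuclei of the class, and the share of all genes called in it was not computed. Neutrophil markers summed to 69.1 to 94.3 CPM for NS-Sham, 398 to 989 for NS-I/R and 234 to 268 for Enpa-I/R macrophage-like nuclei. Without the nuclei that held a neutrophil marker UMI (15.3%, 47.3% and 28.4% of the class in that order), 23 members were called as before. The neutrophil-like class had 1, 2 and 3 nuclei in the NS-Sham libraries and was not compared with them.

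Endothelial-like nuclei carried a narrower rise, led by the carriers and Hif1a. The rises of Slc2a1 and Slc16a3 in this class cannot be told apart from background, as set out below. Slc16a3, Slc2a1, Adm, Hif1a, Pfkp and Eno1 were the named members that rose, and Pgam2, Pfkm, Eno3, Slc2a4, Ldhb and Egln1 those that fell. Of 35 members 19 were called, 12 higher and 7 lower, where 34.9% of all genes tested in that class were called, 18.3% higher and 16.6% lower. The median log2 fold change was 0.21 against 0.02. By role, 6 enzymes rose and 4 fell of 17, 2 carriers rose and 1 fell of 4, 1 regulator fell of 3, 2 of 4 HIF subunits and hydroxylases rose and 1 fell, and 2 of 7 hypoxia response genes rose.

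In this class Hif1a stood at 59.5, 67.6 and 63.9 CPM for NS-Sham, 161, 183 and 179 for NS-I/R and 125, 129 and 120.1 for Enpa-I/R, and the 3 groups did not overlap. It rose by 1.45 ± 0.12 from NS-Sham to NS-I/R (adjusted p = 2.15e-06). Epas1, the alpha subunit most typical of endothelium, stood at 958, 1031 and 931, 821, 802 and 852 and 995, 1021 and 1094 CPM in the same order and was not called (-0.24 ± 0.10, adjusted p = 0.08). Slc2a1 rose from 3.41, 4.81 and 2.78 to 27.5, 23.7 and 27.1 CPM (2.73 ± 0.27), with Enpa-I/R at 16.4, 18.8 and 11.97. Slc16a3 rose by 2.88 ± 0.45, Adm by 1.88 ± 0.32, Pfkp by 1.27 ± 0.16 and Eno1 by 1.14 ± 0.23. The oxygen-sensing hydroxylase Egln1 fell, from 205, 224 and 228 to 109, 80.8 and 147 CPM (-0.97 ± 0.17). Of the other lists, 4 of 20 glycolysis and pyruvate genes rose and 3 fell, and 12 of 28 hypoxia genes rose and 4 fell. Neutrophil markers summed to 0.464 to 2.64 CPM for NS-Sham, 106 to 258 for NS-I/R and 44.6 to 69.7 for Enpa-I/R, and the count of 19 was the same without nuclei that held such a UMI. In the largest endothelial cluster alone, with 39.2% of the nuclei of the class, 11 members were called, and the share of all genes was not computed.

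Fibroblast-like nuclei had 17 of 34 members called, 12 higher and 5 lower, where 28.8% of all genes tested in that class were called, 14.8% higher and 14% lower, with a median of 0.18 against 0.02. Slc2a1 (2.92), Hk2 (1.99), Slc16a3 (1.92), Pfkl (1.22), Hif1a (1.19) and Ldha (1.12) rose. Hk2 stood at 24.7, 21.9 and 20.9 CPM for NS-Sham, 119.7, 90.3 and 58.6 for NS-I/R and 52.4, 50.1 and 85.2 for Enpa-I/R. Both I/R groups lay above NS-Sham, and the adjusted p for NS-I/R was 2.69e-04. Hif1a stood at 40.6, 59.6 and 53.6, 155, 118 and 81.6 and 76.2, 75.4 and 71.8 CPM (adjusted p = 0.0014), and Epas1 was not called (0.13 ± 0.13). Pfkm (-1.09), Pgam2 (-1.08), Ldhb (-1.01), Eno3 (-0.84) and P4ha2 (-0.61) fell. Some of these calls rest on single libraries. Pfkl lost its call without any of 6 libraries (Enpa-I/R replicate 2, NS-I/R replicate 2, NS-I/R replicate 1, NS-Sham replicate 3, NS-Sham replicate 2 or NS-Sham replicate 1; log2 0.93 to 1.57), Eno3 without NS-I/R replicate 2, NS-Sham replicate 3 or NS-Sham replicate 1 (log2 -0.91 to -0.63) and P4ha2 without NS-I/R replicate 2 (log2 -0.54, adjusted p = 0.056). The largest fibroblast cluster alone, with 31.4% of the nuclei of the class, gave 7 calls, and the share of all genes was not computed. Of the other lists, 3 of 20 glycolysis and pyruvate genes rose and 1 fell, and 11 of 31 hypoxia genes rose and 3 fell.

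The smaller classes gave fewer calls. In pericyte-like nuclei 13 of 32 members were called, 9 higher and 4 lower (23.9% of all genes, 12.2% higher and 11.7% lower). Slc16a3 rose by 4.32 ± 0.60 from 4 UMIs for NS-Sham to 83 for NS-I/R, the mTOR inhibitor gene Ddit4 by 2.78 ± 0.51 and Slc2a1 by 2.75 ± 0.56. Pgam2 (-1.45), Pfkm (-0.94) and P4ha1 (-0.88) fell; Pfkm lost its call without NS-I/R replicate 1, NS-Sham replicate 2 or NS-Sham replicate 1 (log2 -0.95 to -0.85, adjusted p 0.076 to 0.088). In lymphatic endothelial-like nuclei 4 of 19 were called, all higher (13.6% of all genes, 6.11% higher and 7.48% lower): Hif1a (2.24), Hk1 (1.83), Pfkp (1.71) and Pkm (1.49). There Pfkp lost its call without NS-Sham replicate 3 or NS-Sham replicate 2 (log2 1.30 to 1.58). Endocardial-like nuclei had 3 of 25 called, all higher (10.5% of all genes, 5.33% higher and 5.21% lower), and these were Hif1a (1.35), Pkm (0.90) and Hk1 (0.76). In smooth muscle-like nuclei 1 of 25 was called (5.95% of all genes, 2.46% higher and 3.5% lower), Pkm, at 1.43 ± 0.25 (adjusted p = 0.0045). Pkm also rose in cardiomyocyte-like and macrophage-like nuclei, and the part of background in its changes in the other classes was not tested.

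The 4 muscle and heart isozymes Pfkm, Pgam2, Eno3 and Ldhb had lower values in the other classes too, where cardiomyocyte markers were also found. Per nucleus, Pfkm gave 1.54 UMIs in cardiomyocyte-like nuclei of NS-Sham, 0.715 of NS-I/R and 1.07 of Enpa-I/R, and 0.0625, 0.0257 and 0.0305 in endothelial-like nuclei. Pgam2 gave 0.576, 0.29 and 0.423 in cardiomyocyte-like, 0.144, 0.0572 and 0.0926 in endothelial-like and 0.152, 0.0579 and 0.0836 in macrophage-like nuclei. The summed cardiomyocyte markers stood at 6207 to 6480.1 CPM for NS-Sham, 2821 to 3509.9 for NS-I/R and 3836 to 5266 for Enpa-I/R endothelial-like nuclei, 2953 to 4153, 1624 to 2374 and 2329 to 2978 in fibroblast-like, 4185 to 5111, 2133 to 2340.1 and 2159.9 to 3332 in macrophage-like and 4193 to 4894, 2218 to 3001 and 3066 to 3649.9 in pericyte-like nuclei. All 8 markers were detected in every library of these classes. The part of this background in the fall of the muscle isozymes and of Slc2a4 outside cardiomyocyte-like nuclei was not tested, and these falls are not read as expression of those classes.

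The rising carriers are to be set against the same background. In NS-I/R, Slc2a1 gave 0.195 UMIs per nucleus in cardiomyocyte-like, 0.293 in macrophage-like nuclei and 0.174 in the neutrophil-like class, and 0.0543 in endothelial-like, 0.0454 in endocardial-like, 0.0574 in fibroblast-like, 0.0627 in pericyte-like, 0.0594 in smooth muscle-like and 0.0579 in lymphatic endothelial-like nuclei. The last 6 classes thus had a like, low level, and the rise called in endothelial-, fibroblast- and pericyte-like nuclei cannot be told apart from background; in the other 3 Slc2a1 was too rare to test. Slc16a3 gave 0.229 in macrophage-like nuclei and 0.196 in the neutrophil-like class and 0.0191 for the cardiomyocyte-like, 0.0241 for the endothelial-like and 0.0218 in endocardial-like nuclei, and the rise of Slc16a3 called in the cardiomyocyte-like and endothelial-like classes cannot be told apart from background either. Egln3 gave 0.537 in cardiomyocyte-like, 0.405 in neutrophil-like, 0.184 in macrophage-like and 0.0362 in endothelial-like nuclei. Hif1a differed between the classes, with 2.3 in cardiomyocyte-like, 1.29 in macrophage-like, 1.05 in smooth muscle-like, 0.979 in lymphatic endothelial-like and 0.36 in endothelial-like nuclei. These levels also follow the total UMIs of a nucleus, which differ between classes.

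**Figure D5:**
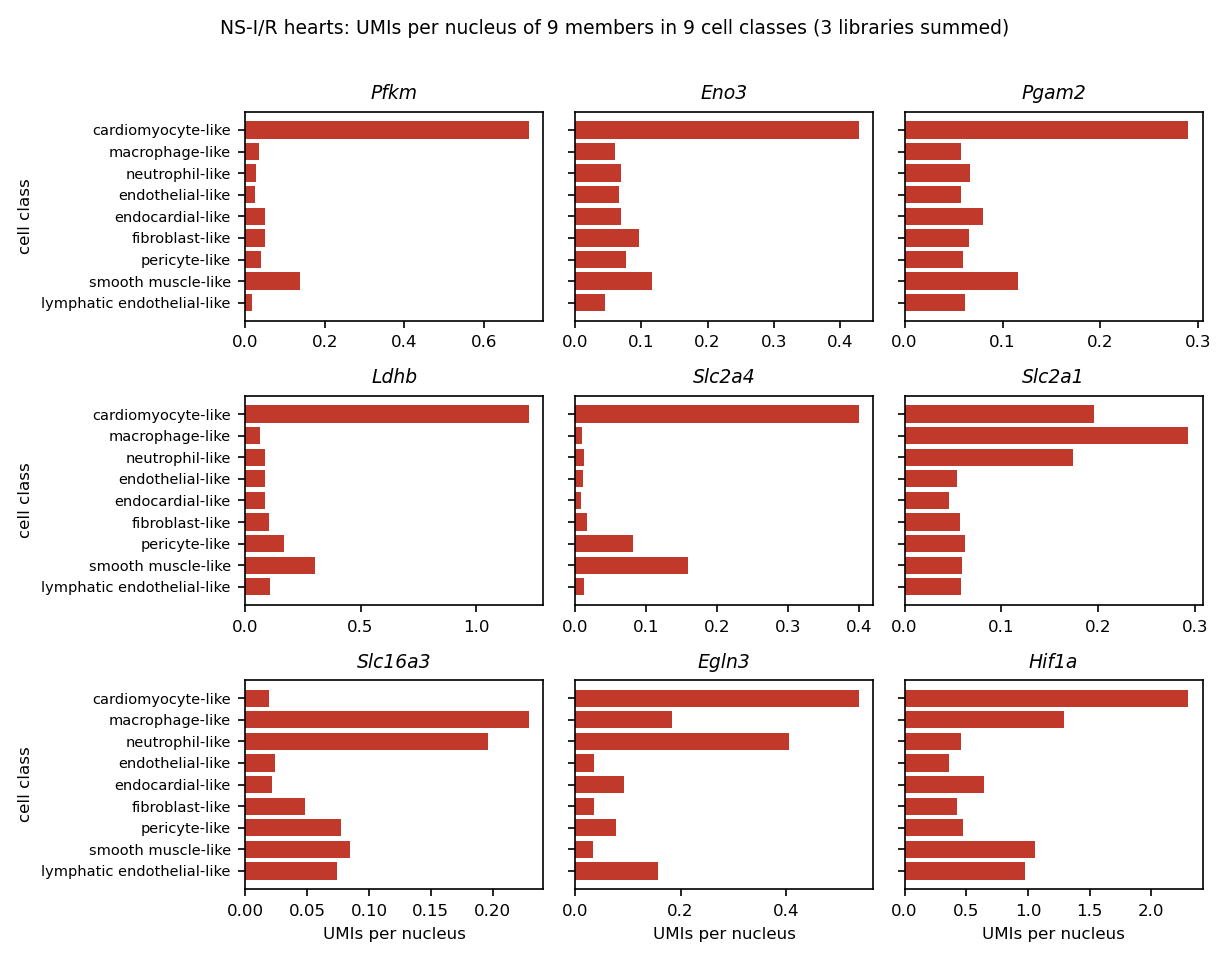
UMIs per nucleus (x axis, from 0, own scale per panel) of 9 members in 9 cell classes (y axis) in NS-I/R hearts, the 3 libraries summed, with no error shown. Pfkm, Eno3, Pgam2, Ldhb and Slc2a4 have their longest bar in cardiomyocyte-like nuclei, Slc2a1 and Slc16a3 in macrophage-like nuclei, with similar short bars for Slc2a1 in 6 other classes.

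Whether a member changed differently in 2 classes was tested within libraries, as the difference between the log2 fold changes of cardiomyocyte-like and other nuclei. Between cardiomyocyte-like and endothelial-like nuclei 8 of 35 members differed in their change from NS-Sham to NS-I/R (15% of all genes), between cardiomyocyte-like and fibroblast-like 12 (17.3%), and between cardiomyocyte-like and macrophage-like 14 (14.3%), each of them lower in cardiomyocyte-like nuclei. Pfkp rose more in cardiomyocyte-like than in endothelial-like nuclei, by 1.52 ± 0.19 (adjusted p = 1.14e-04), and than in fibroblast-like nuclei, by 2.01 ± 0.16. Ndrg1 did likewise, by 2.39 ± 0.29 and 1.87 ± 0.45. Hif1a changed less in cardiomyocyte-like than in endothelial-like nuclei, by -1.17 ± 0.19, and than in macrophage-like nuclei, by -3.13 ± 0.31 (adjusted p = 2.34e-07). Against macrophage-like nuclei the largest named differences were Egln3 (-3.70 ± 0.70), Bnip3 (-2.66 ± 0.35) and Pfkl (-2.47 ± 0.32). Bnip3 thus moved in opposite directions in the 2 classes.

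Enpatoran-treated hearts differed from NS-I/R in few members. In cardiomyocyte-like nuclei Pfkp, Pkm, Slc2a1, Ndrg1 and Adm were lower in Enpa-I/R and Pfkfb2 was higher. These 6 of 35 (1 higher, 5 lower) stand beside a background in which 18.9% of all genes tested in that class were called, 7.63% higher and 11.3% lower. The median log2 fold change of the members was 0.11. By role, 2 of 17 enzymes, 1 of 4 carriers and 2 of 7 hypoxia response genes fell, and 1 of 3 regulators rose. From the CPM given above, all 3 Enpa-I/R libraries lay below all 3 NS-I/R libraries for Pfkp (-1.14 ± 0.21, adjusted p = 0.012) and Pkm (-1.28 ± 0.20, adjusted p = 0.009). Slc2a1 differed by -1.20 ± 0.31 (adjusted p = 0.028), Ndrg1 by -1.38 ± 0.38 and Adm, at 7.29, 4.004 and 5.02 CPM for NS-I/R and 1.48, 2.06 and 1.3 for Enpa-I/R, by -1.75 ± 0.33. Pfkfb2 was higher by 1.21 ± 0.36 (adjusted p = 0.041). Hif1a and Epas1 were not called (0.14 and 0.06).

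These calls were sensitive to single libraries. Without Enpa-I/R replicate 3, 0 of the 35 were called, and Pfkp and Pkm stood at -1.07 and -1.19 (adjusted p = 0.053 and 0.05027). Without NS-I/R replicate 1, 2 were called, and without NS-I/R replicate 3, 15. The shares of all genes called in these fits were not computed. Slc2a1 lost its call without NS-I/R replicate 1 or any Enpa-I/R library (log2 -1.39 to -0.86, adjusted p 0.057 to 0.11). Ndrg1 lost it without any of 5 libraries (Enpa-I/R replicate 3, Enpa-I/R replicate 2, NS-I/R replicate 2, NS-I/R replicate 1 or NS-Sham replicate 3; adjusted p 0.055 to 0.12), and Pfkfb2 without any library other than NS-I/R replicate 3 (log2 0.88 to 1.26, adjusted p 0.061 to 0.15). In cluster 2 alone no member was called at adjusted p below 0.05, and Pfkp had the opposite sign (0.26, adjusted p = 0.45). As given above, cluster 7, in which Pfkp and Pkm were highest, held 50.5% of cardiomyocyte-like nuclei for NS-I/R and 21.6% for Enpa-I/R. Within cluster 7 the levels of Pfkp, Pkm and Slc2a1 given above were also lower for Enpa-I/R than for NS-I/R. No test was run in cluster 7, and the part of cluster makeup in these differences was not tested. Of the other pathway genes named by the rule, Pdk2 (0.77) rose and Angptl4 (-2.68) fell; the call of Pdk2 was lost without NS-I/R replicates 1 or 2 or any Enpa-I/R library (adjusted p 0.064 to 0.11), and that of Angptl4 without Enpa-I/R replicate 3 (log2 -2.36, adjusted p = 0.053).

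In macrophage-like nuclei Hif1a, Pfkp, Pfkl and Slc16a3 were lower in Enpa-I/R than in NS-I/R, 4 of 33 members (0 higher, 4 lower), where 6.23% of all genes tested in that class were called, 2.88% higher and 3.35% lower. The differences were -1.32 ± 0.26 for Pfkp (adjusted p = 0.0089), -0.98 ± 0.21 for Hif1a (adjusted p = 0.013), -0.90 ± 0.25 for Slc16a3 and -0.80 ± 0.19 for Pfkl (adjusted p = 0.023). In each the NS-I/R and Enpa-I/R libraries did not overlap. Slc2a1, Egln3 and Eno1 were not called (-0.73, -1.22 and -0.57). Without NS-I/R replicate 1 none of the 4 was called, with Pfkp at -1.02 (adjusted p = 0.052). Hif1a lost its call without NS-I/R or Enpa-I/R replicates 1 or 2 (log2 -0.92 to -0.84, adjusted p 0.061 to 0.086), Pfkl without NS-I/R replicates 1 or 2 or any Enpa-I/R library (adjusted p 0.052 to 0.11) and Slc16a3 without those or NS-Sham replicate 2 (adjusted p 0.053 to 0.17). Without nuclei that held a neutrophil marker UMI, Hif1a and Pfkp were still called and Slc16a3 (-0.78, adjusted p = 0.14) and Pfkl (-0.70, adjusted p = 0.1) were not. Within cluster 8 no member was called at adjusted p below 0.05; Hif1a there stood at -0.88 (adjusted p = 0.095).

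Endothelial-like nuclei had 5 of 35 members called between Enpa-I/R and NS-I/R, 1 higher and 4 lower (8.38% of all genes, 3.84% higher and 4.54% lower). Adm was lower by -1.88 ± 0.32 (adjusted p = 0.0058), from 22.6, 18.4 and 22.2 CPM for NS-I/R to 7.88, 5.63 and 3.1 for Enpa-I/R, against 3.9, 5.57 and 7.77 for NS-Sham. Pfkp (-0.67), Pkm (-0.55) and Hif1a (-0.48) were lower as well, and Pgam2 was higher (0.76). As with the muscle isozymes above, the Pgam2 value is not read as expression of this class, and the part of background was not tested. Adm kept its call without any 1 library, whereas Hif1a lost it without Enpa-I/R replicate 3, Enpa-I/R replicate 2, Enpa-I/R replicate 1 or NS-I/R replicate 2 (adjusted p 0.071 to 0.086), Pkm without Enpa-I/R replicate 3 or Enpa-I/R replicate 1 (adjusted p 0.079 to 0.086), Pfkp without NS-I/R replicates 1 or 2 or any Enpa-I/R library (adjusted p 0.078 to 0.092) and Pgam2 without any of 7 libraries (all except NS-Sham replicate 2 and NS-I/R replicate 3). The count was 13 without NS-I/R replicate 3 and 0 in the largest endothelial cluster alone.

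In pericyte-like nuclei Ddit4 (-1.62), Hif1a (-1.02) and Pkm (-0.59) were lower in Enpa-I/R, 3 of 32 (5.84% of all genes, 2.79% higher and 3.05% lower), and 9 were called without NS-I/R replicate 3; Ddit4 lost its call without any library other than NS-Sham replicate 3 or NS-I/R replicate 3 (log2 -1.76 to -1.11), Pkm without any other than NS-I/R replicate 3 (log2 -0.69 to -0.52) and Hif1a without NS-I/R replicates 1 or 2 or any Enpa-I/R library (log2 -1.12 to -0.67). Lymphatic endothelial-like nuclei had 1 of 19 called (1.39% of all genes, 0.955% higher and 0.432% lower), Hif1a at -0.97 ± 0.25 (adjusted p = 0.04998), and this call was lost without any library other than NS-I/R replicate 3 (adjusted p 0.053 to 0.21). Fibroblast-like nuclei had 0 of 34 called by edgeR (1.58% of all genes, 0.518% higher and 1.06% lower), with 7 at an unadjusted p below 0.05 and 3 called by DESeq2. Hif1a there stood at -0.66 ± 0.21 (adjusted p = 0.096) and Slc2a1 at -1.43 ± 0.38. Without NS-I/R replicate 3, 12 of the fibroblast-like members were called, and with the Tnc-led cluster added to the class 3 were.

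In the other classes edgeR called 0 members between Enpa-I/R and NS-I/R at adjusted p below 0.05. At that threshold 0% of all genes were called in smooth muscle-like nuclei (0% higher and 0% lower) and 0.294% in endocardial-like nuclei (0.128% higher and 0.166% lower). In neutrophil-like nuclei 1.54% were called (0.948% higher and 0.593% lower), and in the Tnc-led cluster 0% (0% higher and 0% lower). At an unadjusted p below 0.05 stood 6 of 25 members in smooth muscle-like, 3 of 25 in endocardial-like and 6 of 30 in neutrophil-like nuclei. In the Tnc-led cluster 8 of 33 did, all 8 of them lower. The share of all genes at an unadjusted p below 0.05 was not computed for any class or contrast, so such counts have no background beside them. DESeq2 called 0 members in smooth muscle-like nuclei and was not run on the other 3 sets of nuclei.

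Differences in the Enpa-I/R contrast between cardiomyocyte-like nuclei and other classes were called for 1 of 35 members against endothelial-like (4.27% of all genes), 5 against fibroblast-like (3.99%) and 4 against macrophage-like nuclei (3.96%). Ndrg1 was lowered more in cardiomyocyte-like than in endothelial-like nuclei, by -1.56 ± 0.28, and the differences of Hif1a and Pfkl lay above those in macrophage-like nuclei, by 1.07 ± 0.27 and 1.45 ± 0.26. Most of these calls were lost when 1 library was left out, and the values without it are given with the other differences between classes in the closing part.

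Enpa-I/R hearts were also compared with NS-Sham. In cardiomyocyte-like nuclei 9 of 35 were called, 6 higher and 3 lower (18.3% of all genes, 9.2% higher and 9.05% lower). Hk1 (1.90 ± 0.18) and Pfkp (1.69 ± 0.21) rose most, followed by Eno1 (1.13), Pgam1 (1.00), Pgk1 (0.78) and Slc16a1 (0.63), and Epas1 (-0.80), Slc2a4 (-0.79) and Ldhb (-0.55) fell. Side by side with the NS-I/R change, Hk1 stood at 1.78 and 1.90, Slc2a4 at -0.90 and -0.79, Epas1 at -0.85 and -0.80, whereas Pkm stood at 1.73 and 0.45, Ndrg1 at 1.96 and 0.59 and Pfkfb2 at -1.14 and 0.07, the last value of these 3 genes not called. Both changes are taken against the same NS-Sham libraries and are not independent. Calls lost without 1 library were those of Eno1 (4 libraries, adjusted p 0.069 to 0.079), Pgk1 (3, 0.057 to 0.094), Epas1 (4, 0.059 to 0.074) and Ldhb (6, 0.052 to 0.15), and without NS-I/R replicate 3, whose spread enters the fit, 14 were called.

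Macrophage-like nuclei had 21 of 33 members called between Enpa-I/R and NS-Sham, 19 higher and 2 lower (17.5% of all genes, 8.98% higher and 8.52% lower). Egln3 (3.88 ± 0.77), Slc2a1 (3.63 ± 0.41), Pgam1 (2.73 ± 0.40), Slc16a3 (2.50 ± 0.39), Eno1 (2.50 ± 0.31) and Hif1a (2.42 ± 0.26) rose most, and Pgam2 and Ldhb fell; the call of Ldhb was lost without Enpa-I/R replicate 2 or 1 (adjusted p 0.053 to 0.06). In endothelial-like nuclei 13 of 35 were called, 8 higher and 5 lower (11.4% of all genes, 6.38% higher and 4.98% lower), led by Slc2a1 (2.00 ± 0.29) and Hif1a (0.96 ± 0.12). For NS-I/R the Slc2a1 rise in this class could not be told apart from background, and the same caution applies here. Fibroblast-like nuclei had 4 of 34 called, 2 higher and 2 lower (5.82% of all genes, 2.78% higher and 3.03% lower), namely Hk2 (1.47), Ldha (0.74), Eno3 (-1.12) and Pfkm (-1.11). As above, falls of the muscle and heart isozymes in the macrophage-, endothelial- and fibroblast-like classes are not read as expression of those classes. The fibroblast-like count depended on the class boundary and on 1 library: it was 19 with the Tnc-led cluster in the class and 13 without NS-I/R replicate 3, and between 1 and 5 without any other library. Ldha and Eno3 each lost the call without any 1 of 5 libraries, among them all 3 of Enpa-I/R (adjusted p 0.053 to 0.14 and 0.073 to 0.12), and Pfkm without Enpa-I/R replicate 3 or 1 (adjusted p 0.052 to 0.055). Pericyte-like nuclei had Pfkp (1.01) and Slc16a3 (3.01) called of 32 (5.16% of all genes, 3.09% higher and 2.07% lower). Pfkp lost its call without any 1 of 5 libraries (adjusted p 0.051 to 0.17), and Slc16a3 without any 1 of 4 (adjusted p 0.073 to 0.11). Lymphatic endothelial-like nuclei had Hif1a called of 19 (1.28; 1.41% of all genes, 0.721% higher and 0.685% lower); the call of Hif1a was lost without any 1 of 6 libraries (adjusted p 0.063 to 0.21). By edgeR 0 of 25 were called in smooth muscle-like nuclei (0.225% of all genes, 0.0843% higher and 0.14% lower; 4 at an unadjusted p below 0.05, 0 by DESeq2) and 0 of 25 in endocardial-like nuclei (0.768% of all genes, 0.448% higher and 0.32% lower; 5 at an unadjusted p below 0.05).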

How the data were processed

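The deposited files are gene by barcode matrices of raw UMI counts from 10x 3′ single-nucleus libraries, 1 per sample; the file headers name Cell Ranger 8.0.0, while the submitters' processing notes name Cell Ranger 6.1.1, Seurat and the builds GRCh38 and GRCm39. Whether intron reads were counted is not given in the sources used here. Nuclei with at least 500 genes and at most 5% mitochondrial UMIs were kept, the barcodes with the highest Scrublet doublet scores were removed at a rate of 0.8% per 1000 barcodes, and clusters (scanpy 1.11.5, 2000 variable genes, 30 components, Leiden resolution 1, members left out) were named from marker sets. Counts were summed per library and class with at least 25 nuclei in every library and fitted in edgeR 4.0.16, all 9 libraries of a class together. Rare genes were dropped by filterByExpr, libraries were scaled by TMM, and quasi-likelihood p-values were adjusted by Benjamini-Hochberg over all genes of a class and contrast (threshold 0.05). The endocardial-like, neutrophil-like and Tnc-led sets were added after the data were seen. Differences between classes were tested as interaction terms with the library as a block. A standard error is the size of the log2 fold change divided by the square root of its F statistic.

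Members called, with at least 10 mean CPM in the higher group and no overlap of libraries, were named by size, up to 6 per direction in the 4 main classes and 3 in the others, with Hif1a and Epas1 always named in the main classes, and up to 2 other pathway genes per direction, of which 1 gene is not reported here; members outside this rule are named to account for all 35 and were chosen after their values were seen. The members and lists were chosen with earlier results of these data known. The steps were tested on simulated counts: in the NS-I/R against NS-Sham contrast, of 200 genes changed by 1 log2 unit, 32% were called in cardiomyocyte-like, 60% in endothelial-like, 54% in fibroblast-like, 42.5% in macrophage-like, 59.5% in pericyte-like, 8.5% in smooth muscle-like and 29.5% in lymphatic endothelial-like nuclei. For differences of 1 log2 unit from endothelial-, fibroblast- and macrophage-like nuclei, 34%, 39% and 19% were called. Only 200 genes were changed in each simulation, whereas 45.3% of all genes were called in the real cardiomyocyte-like contrast. The adjusted p depends on that share, so these percentages may not carry over to the real data. Promoter windows came from RefSeq (GRCm38.p6) by symbol; Ndrg1, Slc2a4 and Epas1 had no entry. Aldoa occurs under 2 gene IDs and the lower ID was used. Without knowledge of the counting settings, reads of overlapping and antisense genes cannot be told apart, and Gapdh, Pgk1, Ldha, Eno1 and Tpi1 have near-identical pseudogenes. Alternatives were other size factors, no low-count filter, DESeq2 1.42.0, a replicate block, the 6 libraries of a contrast, leaving out 1 library at a time, mitochondrial shares up to 20%, at least 1000 genes, doublets kept, Leiden resolution 2 and the largest cluster of a class. Chosen after seeing the data were fits without nuclei holding a neutrophil marker, without the heat-shock cluster and with the Tnc-led cluster.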

Additional observations from a re-analysis of the deposited data

Results flagged for a closer look

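The values below are members whose change differed between cardiomyocyte-like nuclei and another class by a test of the difference itself, within libraries, with edgeR's adjusted p below 0.05. Each is the log2 fold change in cardiomyocyte-like nuclei minus that in the other class, ± SE, and no more than 4 per pair of classes and contrast are listed.

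For NS-I/R against NS-Sham, the differences from endothelial-like nuclei were 2.39 ± 0.29 for Ndrg1, 1.52 ± 0.19 for Pfkp, -1.26 ± 0.21 for P4ha2 and -1.17 ± 0.19 for Hif1a. From fibroblast-like nuclei they were 2.85 ± 0.39 for Adm, -2.31 ± 0.29 for Bnip3, 2.01 ± 0.16 for Pfkp and 1.87 ± 0.45 for Ndrg1. From macrophage-like nuclei they were -3.70 ± 0.70 for Egln3, -3.13 ± 0.31 for Hif1a, -2.66 ± 0.35 for Bnip3 and -2.47 ± 0.32 for Pfkl. All 12 kept their direction without any 1 library, and the call was lost only for Ndrg1 against fibroblast-like nuclei without NS-Sham replicate 2 (1.55, adjusted p = 0.069).

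For Enpa-I/R against NS-I/R, Ndrg1 differed from endothelial-like nuclei by -1.56 ± 0.28, a call lost without Enpa-I/R replicate 3 (-1.31, adjusted p = 0.059). From fibroblast-like nuclei Ndrg1 differed by -1.93 ± 0.44, Pfkfb2 by 1.56 ± 0.33, Bnip3 by 1.35 ± 0.28 and Pfkp by -0.79 ± 0.15. Ndrg1 lost its call without Enpa-I/R replicate 3, Enpa-I/R replicate 2, NS-I/R replicate 2 or NS-I/R replicate 1 (adjusted p 0.069 to 0.11), Pfkfb2 without Enpa-I/R replicate 3, Enpa-I/R replicate 2, Enpa-I/R replicate 1, NS-I/R replicate 2 or NS-I/R replicate 1 (0.055 to 0.1), Bnip3 without Enpa-I/R replicate 3, Enpa-I/R replicate 1, NS-I/R replicate 2 or NS-I/R replicate 1 (0.065 to 0.081) and Pfkp without Enpa-I/R replicate 3, Enpa-I/R replicate 1 or NS-I/R replicate 1 (0.062 to 0.089). From macrophage-like nuclei Pfkl differed by 1.45 ± 0.26, Bnip3 by 1.22 ± 0.29, Hif1a by 1.07 ± 0.27 and Pkm by -0.81 ± 0.22. Pfkl kept its call without any 1 library, Bnip3 lost it without Enpa-I/R replicate 3, NS-I/R replicate 2 or NS-I/R replicate 1 (adjusted p 0.063 to 0.14), Hif1a without Enpa-I/R replicate 2, Enpa-I/R replicate 1, NS-I/R replicate 2 or NS-I/R replicate 1 (0.05003 to 0.18) and Pkm without Enpa-I/R replicate 3, Enpa-I/R replicate 2, Enpa-I/R replicate 1, NS-I/R replicate 2, NS-I/R replicate 1 or NS-Sham replicate 3 (0.056 to 0.26).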

How the results depend on the processing

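Most counts of members called between NS-I/R and NS-Sham stayed within 1.5 times the reported count under the alternatives run, while counts for Enpa-I/R moved more. Exceptions follow, as members called. The share of all genes called was not computed for the alternatives. These counts, and those with 1 library left out, thus have no background beside them. With the size factors of DESeq2 the lymphatic endothelial-like count for Enpa-I/R against NS-I/R became 0. Without a low-count filter, which tests more rare genes, Enpa-I/R against NS-I/R gave 10 in cardiomyocyte-like, 8 in endothelial-like, 6 in fibroblast-like, 6 in pericyte-like and 1 in smooth muscle-like nuclei, Enpa-I/R against NS-Sham 10 in fibroblast-like, and NS-I/R against NS-Sham 5 in smooth muscle-like and 7 in lymphatic endothelial-like nuclei; the differences between classes for Enpa-I/R became 4, 9 and 7 against endothelial-, fibroblast- and macrophage-like nuclei. The DESeq2 Wald test gave 3 in fibroblast-like nuclei for Enpa-I/R against NS-I/R, and 0 in lymphatic endothelial-like nuclei for both Enpa-I/R contrasts. Fits of only the 6 libraries of a contrast gave 3 in cardiomyocyte-like, 0 in pericyte-like and 0 in lymphatic endothelial-like nuclei for Enpa-I/R against NS-I/R, 17 in cardiomyocyte-like and 14 in fibroblast-like nuclei for Enpa-I/R against NS-Sham, and 1 and 2 differences between classes for Enpa-I/R against fibroblast- and macrophage-like nuclei.

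A mitochondrial limit of 20% gave 3 and 19 in fibroblast-like nuclei for Enpa-I/R against NS-I/R and NS-Sham, 0 in pericyte-like and 0 in lymphatic endothelial-like nuclei for Enpa-I/R against NS-I/R, 2 in smooth muscle-like nuclei for NS-I/R, and 3 differences from fibroblast-like nuclei for Enpa-I/R. Requiring 1000 genes per nucleus gave 3 and 19 in fibroblast-like nuclei, 0 in pericyte-like nuclei for Enpa-I/R against NS-Sham and 0 in lymphatic endothelial-like nuclei for Enpa-I/R against NS-I/R. Keeping doublets gave 4 in smooth muscle-like and 9 in lymphatic endothelial-like nuclei for NS-I/R, 0 and 2 in lymphatic endothelial-like nuclei for Enpa-I/R against NS-I/R and NS-Sham, and 2 differences from endothelial-like nuclei for Enpa-I/R. Leiden resolution 2 gave 3 and 19 in fibroblast-like and 0 in lymphatic endothelial-like nuclei. Adding the Tnc-led cluster to the fibroblast-like class also gave 3 and 19.

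The largest cluster of each class alone, which holds fewer nuclei, gave 10, 11, 7 and 11 calls for NS-I/R against NS-Sham in cardiomyocyte-, endothelial-, fibroblast- and macrophage-like nuclei, 0 for Enpa-I/R against NS-I/R in cardiomyocyte-, endothelial- and macrophage-like nuclei, and 7, 1 and 8 for Enpa-I/R against NS-Sham in endothelial-, fibroblast- and macrophage-like nuclei. Without nuclei holding a neutrophil marker, macrophage-like nuclei had 2 for Enpa-I/R against NS-I/R. Apart from the cases where the construction is named, the cause of these differences was not tested.

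With the replicate block, pericyte-like nuclei had 1 called for Enpa-I/R against NS-Sham, and lymphatic endothelial-like nuclei 0 in both Enpa-I/R contrasts; 7 of 164 gene values lost their call, among them Slc2a1 in cardiomyocyte-like nuclei for Enpa-I/R (-1.17, adjusted p = 0.054). Same-numbered libraries had correlations of deviations between -0.10 and 0.13 and share only a number.

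Leaving out each of the 9 libraries in turn, the members called ranged for NS-I/R against NS-Sham 19 to 26 in cardiomyocyte-like, 16 to 23 in endothelial-like, 13 to 18 in fibroblast-like, 19 to 24 in macrophage-like, 8 to 13 in pericyte-like, 1 to 6 in smooth muscle-like and 3 to 6 in lymphatic endothelial-like nuclei. They ranged for Enpa-I/R against NS-I/R 0 to 15 in cardiomyocyte-like, 1 to 13 in endothelial-like, 0 to 12 in fibroblast-like, 0 to 5 in macrophage-like, 0 to 9 in pericyte-like, 0 to 3 in smooth muscle-like and 0 to 2 in lymphatic endothelial-like nuclei. They ranged for Enpa-I/R against NS-Sham 5 to 14 in cardiomyocyte-like, 8 to 16 in endothelial-like, 1 to 13 in fibroblast-like, 12 to 24 in macrophage-like, 0 to 3 in pericyte-like, 0 to 0 in smooth muscle-like and 0 to 1 in lymphatic endothelial-like nuclei. Differences from endothelial-, fibroblast- and macrophage-like nuclei ranged 5 to 12, 7 to 13 and 10 to 16 for NS-I/R against NS-Sham and 0 to 6, 0 to 11 and 1 to 10 for Enpa-I/R against NS-I/R.

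Values that changed sign under an alternative were those of Epas1 and Hif1a, apart from 2 in cardiomyocyte-like nuclei, both in the largest cluster. These 2 were Ndrg1 for NS-I/R (-1.04) and Pfkp for Enpa-I/R against NS-I/R (0.26). The reversed Epas1 and Hif1a values lay between -0.29 and 0.14, and no reversed value was called. For Enpa-I/R against NS-I/R with 1 library left out, the uncalled values ranged -0.062 to 0.26 for Hif1a in cardiomyocyte-like nuclei, and for Epas1 -0.14 to 0.15 in cardiomyocyte-like, -0.12 to 0.033 in fibroblast-like and -0.25 to 0.081 in macrophage-like nuclei. Epas1 also changed sign in this contrast in macrophage-like nuclei with doublets (0.096) and in the largest cluster (0.14), and in the largest cardiomyocyte-like cluster (-0.25). In fibroblast-like nuclei Epas1 changed sign for NS-I/R against NS-Sham and for Enpa-I/R against NS-Sham with a mitochondrial limit of 20% (-0.22 and -0.29), with 1000 genes (-0.25 and -0.29), at Leiden resolution 2 (-0.24 and -0.28) and with the Tnc-led cluster (-0.24 and -0.29), and for the latter contrast also in the largest cluster (-0.097).

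Depth limits the rare members: Adm, Slc16a3 and Egln3 rest on few UMIs in NS-Sham, and fewer members passed the low-count filter in smooth muscle-like (25) and lymphatic endothelial-like nuclei (19).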
